A study of Mus musculus with 6 samples.

Results

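Embigin, basigin and neuroplastin are membrane glycoproteins with immunoglobulin domains that escort lactate transporters to the cell surface, and 8 genes of this system were examined among the 54232 genes counted in mouse mammary tumors. They are the chaperone genes Emb, Bsg and Nptn, the monocarboxylate transporter genes Slc16a1, Slc16a3 and Slc16a7, and the lactate dehydrogenase genes Ldha and Ldhb. Emb was selected on its higher counts in fx/fx than in wt/wt tumors, so its difference between these groups is given as a description with no test. The other 7 were listed by family, as chaperones, transporters and lactate dehydrogenases, although the list was drawn up when results of these data were already known.

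Lactate crosses the plasma membrane together with a proton through the transporters MCT1, MCT4 and MCT2, encoded by Slc16a1, Slc16a3 and Slc16a7. These proteins need a chaperone to reach the membrane: basigin serves MCT1 and MCT4, and embigin is the preferred partner of MCT2. Lactate dehydrogenase is a tetramer of the A subunit (Ldha), which favours making lactate from pyruvate, and the B subunit (Ldhb), which favours the reverse reaction. In tumors MCT4 and the A subunit are known for lactate export from glycolytic and hypoxic cells, and MCT1 serves both export and uptake.

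All libraries were made from NIC+ tumors. The NIC transgene joins an activated ErbB2 receptor and Cre recombinase on a single transcript under the MMTV promoter, which is active in mammary epithelium. The 3 CdGAP fx/fx libraries (fx1, fx2 and fx3) carried floxed copies of the CdGAP gene Arhgap31, which Cre can recombine, and the 3 CdGAP wt/wt libraries (wt1, wt2 and wt3) carried unmodified copies. Both genotypes carried the oncogene and Cre, and age is not given in the labels used here. Whether Cre also acted in other cells of the tumor was not measured. Whether each tumor stands for another animal is not stated, and p-values cover only the spread among these samples, which may be technical. The comparison addresses tumors whose epithelium can lose CdGAP, a protein that switches off the GTPases Cdc42 and Rac1.

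The libraries held between 36732137 and 53606276 counts of read pairs in fx/fx and between 42373196 and 46460750 in wt/wt. Arhgap31 measured 155, 44.1 and 115 counts per 1000000 (CPM) in fx1, fx2 and fx3, against 664, 432 and 549.5 CPM in wt1, wt2 and wt3, so every fx/fx library lay below every wt/wt library. These counts cover the whole gene, and which exons are floxed is not given in the labels. Summed over 9 luminal epithelial markers led by Epcam, the level was between 4086 and 5536 CPM in fx/fx and between 4006 and 4772 CPM in wt/wt, which fits the mammary tumor label. Higher in every fx/fx than in every wt/wt library were 8 of 10 fibroblast, 5 of 9 adipocyte, 4 of 6 pericyte, 4 of 7 mast cell and 3 of 6 erythroid markers. The same held for 2 of 9 luminal, 2 of 7 basal and 2 of 9 endothelial markers. It held for 0 of 9 macrophage and 0 of 8 T and NK cell markers. Of the fibroblast markers, 1 was lower in every fx/fx library. The 4 mast cell markers reached at most 1.52 CPM (Mcpt4 in fx1). Kit, the highest of the mast cell list, had a log2 fold change of -0.67. Of all tested genes, 19.7% did not overlap between the genotypes in 1 direction or the other, so the luminal and endothelial counts are near that share. Fibroblast markers summed to 947, 1488 and 820 CPM in fx1, fx2 and fx3, against 440, 542 and 352 CPM in wt1, wt2 and wt3. In such bulk samples, fewer cells of a type and less RNA per cell cannot be told apart. The part that these cell types have in the values below was not tested, except where a measurement is named.

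All 8 genes passed the filter on low counts, the lowest count of any being 85 pairs (Emb in wt2). The order of the genes by level, in CPM per kilobase of annotated exon, began in fx/fx with Bsg at 504.5 ± 167, Ldha at 412 ± 149 and Ldhb at 198 ± 93.2 (SD, n = 3). These neighbours overlapped in their libraries, and all 3 stood above Emb at 33.7 ± 30.0 and Nptn at 28.6 ± 8.71, which overlapped each other. The transporters were lowest in fx/fx, with Slc16a1 at 1.96 ± 0.206, Slc16a3 at 1.65 ± 1.75 and Slc16a7 at 1.03 ± 0.564. Slc16a3 overlapped both others, while Slc16a1 lay above Slc16a7 in every fx/fx library. In wt/wt the order was Ldha (536.5 ± 73.0), Bsg (444 ± 69.1), Ldhb (67.4 ± 17.6) and Nptn (19.1 ± 3.02), followed by Slc16a1 (1.31 ± 0.474), Slc16a7 (1.26 ± 0.375), Slc16a3 (1.07 ± 1.02) and Emb (0.578 ± 0.467). In wt/wt only Ldha with Bsg, and the last 4 genes with their neighbours, overlapped. Emb thus had the lowest mean of the 8 in wt/wt, overlapping the transporters, while in fx/fx it overlapped Nptn and lay above the transporters in every library.

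Read against the whole transcriptome, 3 of the 8 genes (Emb, Ldhb and Slc16a1) did not overlap between the genotypes, where 19.7% of the 16752 tested genes did not, and Emb had been selected for this. Of the 7 others, 2 did not overlap. edgeR called 0 of these 7 at an adjusted p under 0.05, as it called 0 (0%) of all tested genes. At an unadjusted p under 0.05 edgeR listed 1 of the 7, Ldhb, against 2381 or 14.2% of all tested genes. DESeq2 called 1 of the 7, Ldhb, against 805 or 4.81% of the genes edgeR tested. limma-voom called 0 genes, with 2389 at an unadjusted p under 0.05. The median log2 fold change of the 7 was 0.58, beside -0.004 over all tested genes. Since the 8 were listed with results known, these counts describe them and test nothing.

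**Figure D1:**
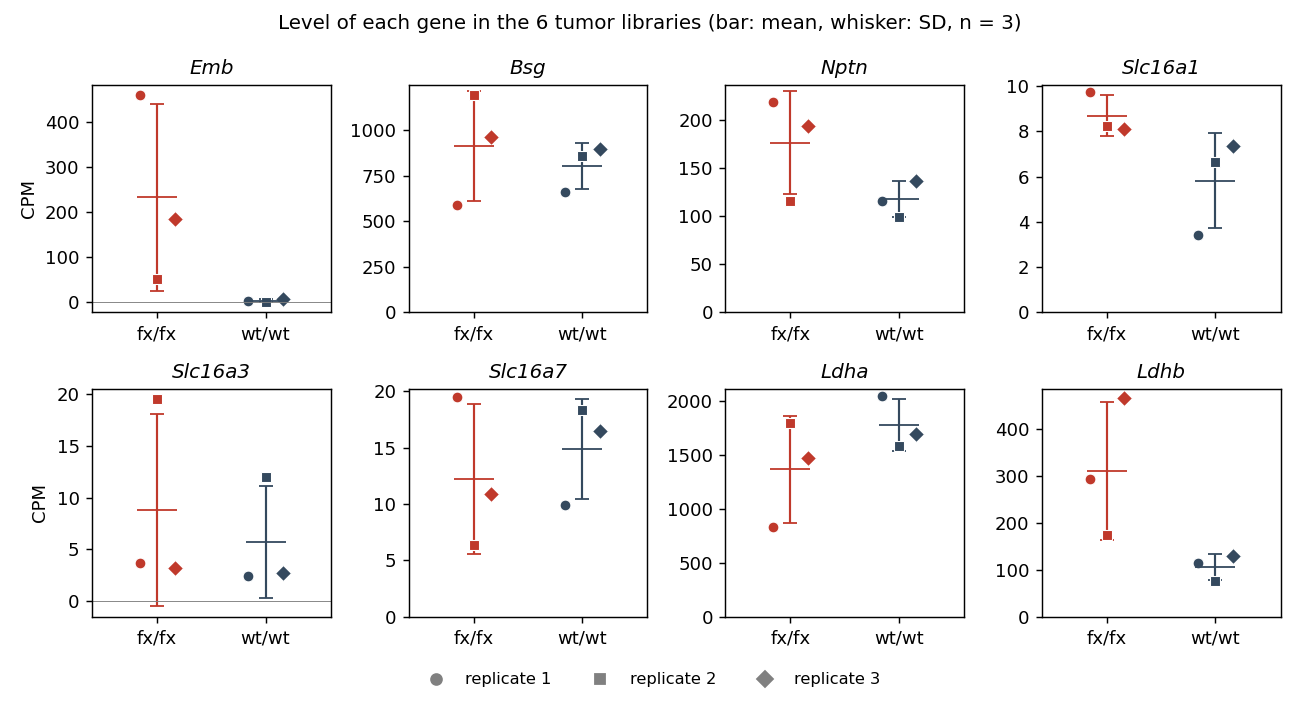
CPM of each gene (vertical axes, linear, each with its own scale) in fx/fx and wt/wt libraries; points are libraries, shaped by replicate number, with the mean and SD (n = 3 each). Emb, Ldhb and Slc16a1 do not overlap between the genotypes, and Slc16a3 is high in replicate 2 of each genotype.

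Among the chaperones, Emb (ENSMUSG00000021728, chromosome 13, 117208536 to 117274415, plus strand, GRCm38) was high in fx/fx tumors and low in wt/wt tumors. It had 24438, 1975 and 7668 counts in fx1, fx2 and fx3, against 107, 85 and 353 counts in wt1, wt2 and wt3. In CPM these were 460, 52.9 and 186 in fx1, fx2 and fx3, against 2.37, 1.897 and 7.70 in wt1, wt2 and wt3. The groups did not overlap: the lowest fx/fx library was still far above wt3, the highest wt/wt library, while fx1 exceeded fx2 several times over. The means were 233 ± 207 CPM in fx/fx and 3.99 ± 3.23 CPM in wt/wt (SD, n = 3 each), a 58.35-fold higher mean (log2 fold change 5.87, SE 1.00). With any single library left out the log2 fold change lay between 4.89 (without fx1) and 6.76 (without wt3). Embigin is known as a marker of sebaceous gland progenitors in mouse skin. The 8 epidermal and sebaceous markers summed to between 5.03 and 9.41 CPM in fx/fx and between 8.50 and 16.3 CPM in wt/wt, with Flg and Mc5r under 0.1 CPM in every library.

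The promoter that RefSeq gives for Emb (GRCm38.p6, chr13:117220323-117220622, plus strand, 250 bases before to 50 bases after the start) lies inside the counted gene, whose Ensembl model starts further upstream. It is shown because Emb has the widest difference of the 8. In this and the other promoters printed here, capitals mark the core of the hypoxia response element, ACGTG on either strand. No capitals appear in the window of Emb, so these letters are not in it.
Emb: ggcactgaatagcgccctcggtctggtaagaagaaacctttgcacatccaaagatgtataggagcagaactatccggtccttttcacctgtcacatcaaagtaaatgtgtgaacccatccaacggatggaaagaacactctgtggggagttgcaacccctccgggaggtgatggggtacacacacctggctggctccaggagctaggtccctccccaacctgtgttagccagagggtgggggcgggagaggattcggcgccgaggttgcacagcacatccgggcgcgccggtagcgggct

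The difference of Emb was much wider than that of any gene close to it. Of 7 tested genes within 2 Mb (Parp8, Mrps30, Fgf10, B430218F22Rik and the pseudogenes Gm6035, Rpl34-ps2 and Gm6421), the log2 fold changes ran from -0.53 (Parp8) to 1.81 (Fgf10), with a median of -0.07. Parp8, the nearest protein-coding gene, had a log2 fold change of -0.53 (SE 0.43). Fgf10, a growth factor made by mesenchyme, was the only 1 of the 7 with an unadjusted edgeR p under 0.05, which 14.2% of all tested genes passed. Its adjusted p was 0.308. Its level was low, at 0.53, 1.10 and 0.27 CPM in fx1, fx2 and fx3, against 0.22, 0.25 and 0.065 CPM in wt1, wt2 and wt3. Over the 40 tested genes within 5 Mb the median was 0.03, and 5 had an unadjusted edgeR p under 0.05, near that 14.2%. The lowest of these p-values was that of Hmgcs1 (log2 fold change 1.18, SE 0.19, edgeR adjusted p = 0.153). Protein-coding genes within 10 Mb lay, at the median, at log2 levels of 0.19, -0.01 and 0.09 in fx1, fx2 and fx3 relative to the wt/wt mean.

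**Figure D2:**
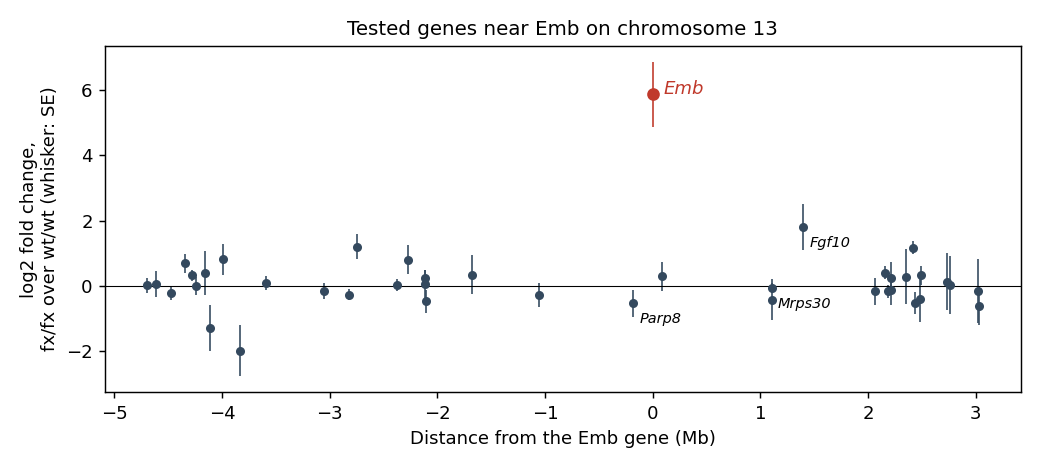
Log2 fold change of fx/fx over wt/wt (vertical axis; whiskers are SEs from edgeR) of each tested gene against its distance from Emb on chromosome 13 in Mb (horizontal axis). Emb stands at 5.87 and the other 40 genes lie between -1.98 and 1.81.

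The genes with the profile nearest to that of Emb were found over the 6 libraries as the root mean square distance between log2 CPM values, each gene centred on its own mean, among 12376 protein-coding genes. They were Comp, a cartilage matrix protein (0.68), Unc79 (0.87), Atp6v1c2, a subunit of the vacuolar proton pump (0.89), Ppp2r2b, a regulatory subunit of a protein phosphatase (0.99), and Ror2, a Wnt receptor (1.16). Comp measured 4816, 353 and 1441 CPM in fx1, fx2 and fx3, against 15.4, 35.0 and 164 CPM in wt1, wt2 and wt3. Its fx/fx libraries stood in the same order as those of Emb. As Comp was picked as the nearest of 12376 genes over these same libraries, that order is no separate evidence of a link. In wt/wt the order differed, Comp being lowest in wt1 and Emb in wt2. Of the other 7 genes of lactate transport, Ldhb came nearest to Emb, at rank 208 with a distance of 2.26, and Ldha was farthest, at rank 10874 with a distance of 3.34. The distance includes the difference between the genotypes, on which Emb was selected. These ranks therefore largely follow the fold changes and are no separate evidence of a link. Emb itself varied around its mean by 3.03. None of the 8 had another of them among its 3 nearest genes, an absence that says little with so many genes compared.

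Bsg encodes basigin (CD147), the main chaperone of MCT1 and MCT4 (ENSMUSG00000023175, chromosome 10, 79704491 to 79711969). It measured 591, 1193 and 961 CPM in fx1, fx2 and fx3, against 663, 858 and 897 CPM in wt1, wt2 and wt3. The groups overlapped, with fx/fx holding both the lowest and the highest library. The mean was 915 ± 303 CPM in fx/fx and 806 ± 125 CPM in wt/wt (n = 3 each), and edgeR gave a log2 fold change of 0.18 (SE 0.30, adjusted p = 0.828). Without fx2 the log2 fold change was -0.052, so its sign rested on that library. Protein-coding genes within 10 Mb of Bsg lay, at the median, at log2 levels of -0.61, -0.07 and -0.01 in fx1, fx2 and fx3 relative to the wt/wt mean. Bsg stood at -0.43, 0.58 and 0.27 in these libraries on the same scale, so its low value in fx1 stood beside a low median of its neighbours there, whose part in it was not tested.

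Nptn encodes neuroplastin, a relative of basigin that can also carry MCT2 (ENSMUSG00000032336, chromosome 9, 58582240 to 58657955). It measured 219, 116 and 194 CPM in fx1, fx2 and fx3, against 116, 99.7 and 137 CPM in wt1, wt2 and wt3. Libraries fx1 and fx3 lay above all wt/wt libraries and fx2 lay among them. The log2 fold change was 0.59 (SE 0.26, edgeR adjusted p = 0.369). DESeq2 did not call it either with all libraries (adjusted p = 0.402), but did so without fx2, with an adjusted p of 0.0422.

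As a share of the 3 chaperones per kilobase, Emb made up 15.5%, 1.119% and 4.57% in fx1, fx2 and fx3, against 0.0893%, 0.0561% and 0.216% in wt1, wt2 and wt3. Bsg held the largest share in every library, from 76.2% (fx1) to 96.1% (fx2) in fx/fx and from 95.01% (wt1) to 96.6% (wt2) in wt/wt. Emb transcripts therefore exceeded those of Nptn in fx1, where Nptn made up 8.29%, but not in fx2 (2.75%) or fx3 (5.36%). Leaving Emb out, the share of Bsg in Bsg and Nptn was 93.9% ± 3.54 in fx/fx and 95.8% ± 0.806 in wt/wt, which did not pass an exact 2-sided permutation test (p = 0.5). That test cannot give less than 0.1 with 3 against 3 libraries.

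**Figure D3:**
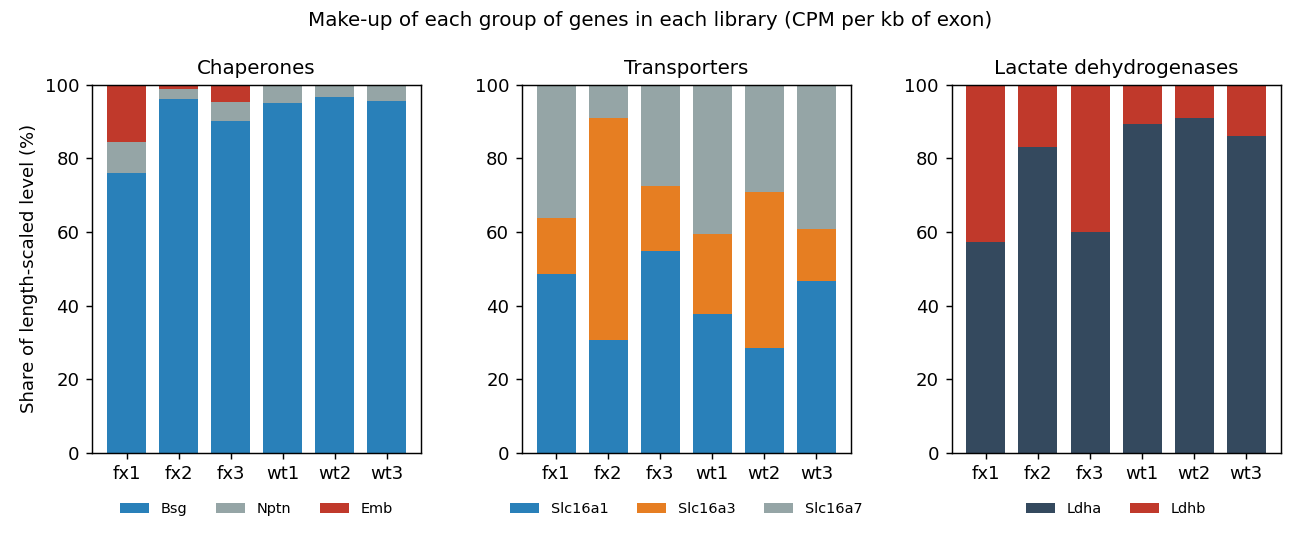
Share in percent (vertical axis) of each gene in the summed CPM per kilobase of its group, for the chaperones, the transporters and the lactate dehydrogenases in each of the 6 libraries (horizontal axis, fx/fx left of wt/wt). Emb is visible in fx1 and fx3, Slc16a3 is the largest part in fx2 (60.4%) and wt2 (42.4%), and Ldhb takes 42.8% and 40.0% in fx1 and fx3.

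Among the transporters, Slc16a1 (ENSMUSG00000032902, chromosome 3, 104638668 to 104658462), which encodes MCT1, was slightly higher in every fx/fx library. It measured 9.74, 8.24 and 8.10 CPM in fx1, fx2 and fx3, against 3.43, 6.65 and 7.38 CPM in wt1, wt2 and wt3. The groups did not overlap, but fx3 and wt3 were less than 1 CPM apart. The means were 8.70 ± 0.912 CPM in fx/fx and 5.82 ± 2.10 CPM in wt/wt (n = 3 each), and the log2 fold change was 0.58 with an SE of 0.35. Neither edgeR (adjusted p = 0.502) nor DESeq2 (0.478) called it. Slc16a1 made up 44.7% ± 12.5 of the 3 transporters per kilobase in fx/fx and 37.6% ± 9.20 in wt/wt (exact 2-sided permutation p = 0.4).

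Slc16a3 (ENSMUSG00000025161, chromosome 11, 120948480 to 120960868), which encodes the lactate exporter MCT4, differed between libraries of the same genotype more than between the genotypes. It measured 3.67, 19.5 and 3.13 CPM in fx1, fx2 and fx3, against 2.41, 12.0 and 2.68 CPM in wt1, wt2 and wt3. One library of each genotype, fx2 and wt2, stood well above the other 4. The means were 8.77 ± 9.31 CPM in fx/fx and 5.69 ± 5.44 CPM in wt/wt (n = 3 each; log2 fold change 0.62, SE 0.90, edgeR adjusted p = 0.808). Without fx2 the log2 fold change was -0.74, and without wt2 it was 1.775. Car9, a carbonic anhydrase induced by hypoxia, was also highest in these libraries, at 7.79, 37.3 and 14.9 CPM in fx1, fx2 and fx3, against 17.6, 39.0 and 13.2 CPM in wt1, wt2 and wt3. Pdk1, a kinase that inhibits pyruvate dehydrogenase and is likewise induced by hypoxia, was highest in fx2 at 140 CPM. It reached 77.2 CPM in wt2, with the other 4 libraries between 48.2 and 67.7 CPM. Ldha and Car12, another carbonic anhydrase, went the other way in wt2. At 1586 and 445 CPM there, each was at its lowest among the wt/wt libraries. Among the fx/fx libraries Ldha was highest in fx2 and Car12 was not. Skeletal muscle markers were highest in the same libraries. Their 7 genes summed to 1.49, 38.65 and 1.31 CPM in fx1, fx2 and fx3, against 3.43, 11.6 and 4.02 CPM in wt1, wt2 and wt3. The part of hypoxia or of muscle cells in the level of Slc16a3 was not tested. Protein-coding genes within 10 Mb of Slc16a3 had medians relative to wt/wt of -0.08 in fx2 and 0.03 in wt2.

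The RefSeq promoter of Slc16a3 (GRCm38.p6, chr11:120948817-120949116, plus strand) is shown because this gene was highest in the same library of each genotype as Car9 and Pdk1, both induced by hypoxia. It holds the ACGTG core 27 and 14 bases before the start. Of 32544 RefSeq promoter windows of the same length, 19.7% hold the core. Among the 6 of the 8 genes with an entry, windows of Slc16a1, Nptn and Slc16a3 held 2 separate cores each, overlapping matches being counted once, and 1 of the windows of Ldha held 3. The core contains a CpG dinucleotide. These windows had between 27 (Nptn) and 42 (Slc16a1) CpGs, against a median of 7 over all windows. The 19.7% is therefore not a like background for them. The E-box CACGTG, which contains the core, was present in Slc16a1, Nptn and Ldha and in 7.17% of all windows. A match of these letters is a description and shows no binding.
Slc16a3: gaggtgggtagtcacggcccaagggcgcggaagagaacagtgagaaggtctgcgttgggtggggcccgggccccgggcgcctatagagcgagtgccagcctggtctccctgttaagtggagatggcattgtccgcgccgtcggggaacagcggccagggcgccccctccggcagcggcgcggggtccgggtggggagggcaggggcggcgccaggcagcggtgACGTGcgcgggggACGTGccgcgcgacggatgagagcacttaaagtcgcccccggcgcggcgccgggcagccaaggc

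Slc16a7 (ENSMUSG00000020102, chromosome 10, 125219270 to 125389465, minus strand), which encodes MCT2, the partner of embigin, had no clear difference between the genotypes. It measured 19.5, 6.37 and 10.9 CPM in fx1, fx2 and fx3, against 9.88, 18.3 and 16.5 CPM in wt1, wt2 and wt3. The groups overlapped, and fx/fx held both the highest and the lowest library. The log2 fold change was -0.28 (SE 0.44, edgeR adjusted p = 0.822), and 0.031 without fx2. Its protein-coding neighbours within 10 Mb had a median relative to wt/wt of -0.62 in fx1, the library in which Slc16a7 was highest.

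Of the lactate dehydrogenases, Ldhb but not Ldha was separated between the genotypes. Ldha (ENSMUSG00000063229, chromosome 7, 46841475 to 46855627) measured 827, 1798 and 1472 CPM in fx1, fx2 and fx3, against 2048, 1586 and 1694 CPM in wt1, wt2 and wt3. Library fx1 was the lowest of all and fx2 lay among the wt/wt libraries. The means were 1365 ± 494 CPM in fx/fx and 1776 ± 241 CPM in wt/wt (n = 3 each; log2 fold change -0.38, SE 0.32, edgeR adjusted p = 0.651). Ldha has near-identical processed pseudogenes, so pairs that align to several of them could have been lost.

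Ldhb (ENSMUSG00000030246, chromosome 6, 142490249 to 142507957, minus strand) was higher in every fx/fx library. It measured 293, 173 and 465 CPM in fx1, fx2 and fx3, against 114, 74.9 and 128 CPM in wt1, wt2 and wt3. The groups did not overlap, and the order of the fx/fx libraries differed from that of Emb, fx3 being highest. The means were 310 ± 146 CPM in fx/fx and 106 ± 27.7 CPM in wt/wt (n = 3 each), a 2.93-fold higher level. The log2 fold change was 1.55 (SE 0.38), which did not pass edgeR (adjusted p = 0.185) and passed DESeq2 (adjusted p = 0.00979). The DESeq2 call was lost without wt1 (adjusted p = 0.0558), without wt2 (0.0765) or without fx3 (0.0656). Protein-coding genes within 10 Mb of Ldhb had medians relative to wt/wt of 0.14, 0.01 and -0.003 in fx1, fx2 and fx3, where Ldhb stood at 1.51, 0.75 and 2.17.

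The share of Ldhb in the 2 subunit transcripts per kilobase was 42.8%, 16.9% and 40.0% in fx1, fx2 and fx3, against 10.5%, 9.05% and 13.8% in wt1, wt2 and wt3. Every fx/fx library lay above every wt/wt library, with fx2 nearest to them. The means were 33.2% ± 14.2 in fx/fx and 11.1% ± 2.42 in wt/wt (n = 3 each), with p = 0.1 by the exact 2-sided permutation test, its lowest possible value here, or 0.3 adjusted over the 3 shares compared.

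The RefSeq promoter of Ldhb (GRCm38.p6, chr6:142507908-142508207, minus strand) is printed beside that of Emb as the other gene with a wide gap between the genotypes. Neither window holds the ACGTG core. CpG dinucleotides numbered 14 in the window of Emb and 17 in that of Ldhb, against 36 in that of Slc16a3 and a median of 7 over all windows.
Ldhb: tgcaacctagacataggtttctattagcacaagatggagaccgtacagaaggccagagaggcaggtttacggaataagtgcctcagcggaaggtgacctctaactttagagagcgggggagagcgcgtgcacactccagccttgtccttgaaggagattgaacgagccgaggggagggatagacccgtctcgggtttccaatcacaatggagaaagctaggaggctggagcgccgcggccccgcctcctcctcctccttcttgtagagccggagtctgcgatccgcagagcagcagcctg

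**Figure D4:**
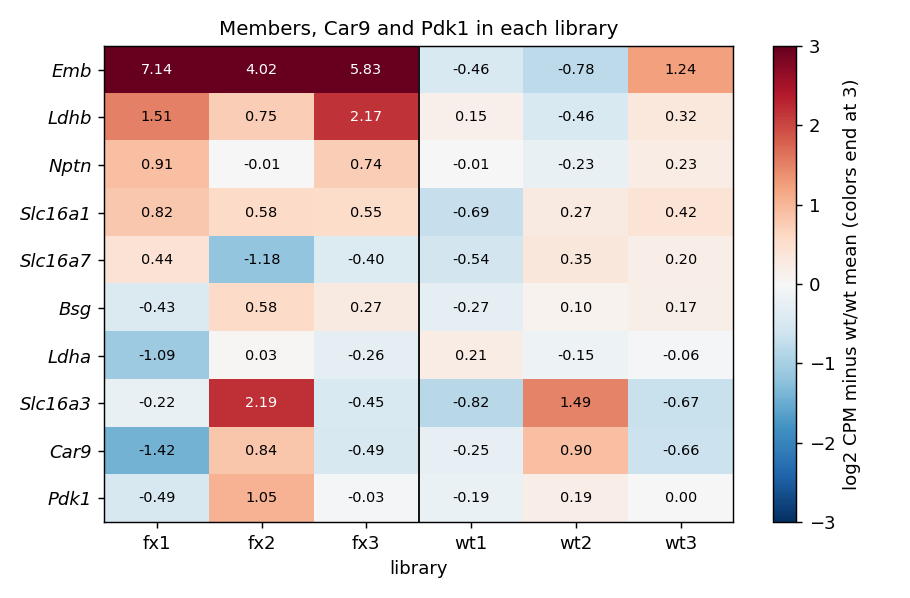
Log2 CPM minus the mean of the wt/wt libraries for the 8 genes and for Car9 and Pdk1 (one line each) in each library (columns, fx/fx left of wt/wt); red is above and blue below the wt/wt mean, colors end at 3, and each cell prints its value. Emb stands at 7.14, 4.02 and 5.83 in fx1, fx2 and fx3, while Slc16a3 stands out in fx2 (2.19) and wt2 (1.49).

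Beyond the 8 genes, 56 others of lactate and pyruvate handling were examined, of which 49 were tested. edgeR called 0 of them at an adjusted p under 0.05. At an unadjusted p under 0.05 there were 8 higher and 3 lower in fx/fx, beside 14.2% of all tested genes in both directions. DESeq2 called 2 higher and 2 lower, beside 4.81% of all tested genes. Between the genotypes 9 of the 49 did not overlap, which is near the 19.7% of all tested genes. Their median log2 fold change was 0.25.

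Of 13 other monocarboxylate carriers, 9 were tested, and 2 were higher and 1 lower at an unadjusted p under 0.05, which 14.2% of all tested genes passed. Slc16a4, a less characterised member of the same family, measured 8.18, 6.02 and 6.59 CPM in fx1, fx2 and fx3, against 1.70, 0.826 and 3.56 CPM in wt1, wt2 and wt3. These groups did not overlap, and edgeR put Slc16a4 at a log2 fold change of 1.77 with an SE of 0.53 (adjusted p = 0.229), while DESeq2 called it higher (adjusted p = 0.0196). Slc16a6 averaged 22.5 ± 9.19 CPM in fx/fx and 9.99 ± 3.79 CPM in wt/wt (n = 3 each) and was not called by DESeq2 (adjusted p = 0.117). Slc5a8, a sodium-coupled transporter that takes up lactate and short-chain fatty acids, measured 6.68, 13.4 and 20.6 CPM in fx1, fx2 and fx3, against 15.1, 95.1 and 86.1 CPM in wt1, wt2 and wt3. Its groups overlapped through wt1, and DESeq2 called it lower (log2 fold change -2.27 by edgeR, DESeq2 adjusted p = 0.0131, edgeR adjusted p = 0.245). Slc5a8 lies on chromosome 10, as do Bsg and Slc16a7. The median log2 levels of the neighbours of Bsg and Slc16a7 relative to wt/wt were -0.61 and -0.62 in fx1. They were -0.07 and -0.06 in fx2, and -0.01 and -0.0002 in fx3. The part of the region in the level of Slc5a8 was not tested.

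Of 5 other lactate dehydrogenase and lactate receptor genes, 4 were tested and 2 were higher at an unadjusted p under 0.05 (14.2% of all tested genes in both directions). Ldhd, the mitochondrial enzyme that oxidises D-lactate, measured 141.5, 38.8 and 61.6 CPM in fx1, fx2 and fx3, against 27.2, 35.0 and 31.3 CPM in wt1, wt2 and wt3. These groups did not overlap, with fx1 well above the rest (log2 fold change 1.37, SE 0.44, edgeR adjusted p = 0.246). Hcar1, the lactate receptor known from adipocytes, was low at 0.583, 1.87 and 0.873 CPM in fx1, fx2 and fx3, against 0.509, 0.112 and 0.196 CPM in wt1, wt2 and wt3 (edgeR adjusted p = 0.268). Adipocyte markers without Pnpla2, which had the highest CPM of them, summed to 78.9, 243 and 108 CPM in fx1, fx2 and fx3, against 57.6, 18.5 and 23.1 CPM in wt1, wt2 and wt3. With Pnpla2 (log2 fold change -0.09) the sums were 253, 455 and 294 CPM in fx1, fx2 and fx3. In wt1, wt2 and wt3 they were then 290, 187 and 234 CPM, so the genotypes overlapped. Both sums were highest in fx2, the library in which Hcar1 was highest. The part of adipocytes in its level was not tested. Uevld averaged 33.1 ± 4.82 CPM in fx/fx and 39.0 ± 9.45 CPM in wt/wt (edgeR adjusted p = 0.69).

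All 17 genes of pyruvate fate were tested, and 2 were higher at an unadjusted p under 0.05, a share below the 14.2% of all tested genes. Mpc2, a subunit of the mitochondrial pyruvate carrier, averaged 138 ± 63.7 CPM in fx/fx and 71.4 ± 24.9 CPM in wt/wt (edgeR adjusted p = 0.333), whereas its partner Mpc1 averaged 20.6 ± 6.68 CPM in fx/fx and 22.5 ± 1.39 CPM in wt/wt (edgeR adjusted p = 0.879). Pdk4, which inhibits pyruvate dehydrogenase, averaged 4.81 ± 1.98 CPM in fx/fx and 2.19 ± 0.576 CPM in wt/wt, without overlap (edgeR adjusted p = 0.308). Pkm, the pyruvate kinase that makes the substrate of lactate dehydrogenase, averaged 2075 ± 518 CPM in fx/fx and 1490 ± 20.9 CPM in wt/wt, also without overlap (edgeR adjusted p = 0.45). Pdha1, of the pyruvate dehydrogenase complex, averaged 280 ± 38.9 CPM in fx/fx and 275 ± 40.3 CPM in wt/wt (n = 3 each for all of these).

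Among 9 proteins known to associate with basigin or neuroplastin, 7 were tested, and 1 was higher and 1 lower at an unadjusted p under 0.05, beside 14.2% of all tested genes. Atp2b4, a plasma membrane calcium pump, measured 19.3, 8.91 and 9.02 CPM in fx1, fx2 and fx3, against 6.09, 5.18 and 4.71 CPM in wt1, wt2 and wt3 (edgeR adjusted p = 0.237, DESeq2 adjusted p = 0.0465). Xkr8, a scramblase that basigin or neuroplastin brings to the membrane, measured 5.12, 7.12 and 4.80 CPM in fx1, fx2 and fx3, against 9.39, 10.4 and 8.95 CPM in wt1, wt2 and wt3 (edgeR adjusted p = 0.295, DESeq2 adjusted p = 0.105). Both genes were without overlap between the genotypes, in opposite directions. Slc7a5, an amino acid transporter found in complexes with basigin, averaged 484.5 ± 383 CPM in fx/fx and 295 ± 120 CPM in wt/wt, and Ppia, the basigin ligand cyclophilin A, 428 ± 178 CPM in fx/fx and 493 ± 29.2 CPM in wt/wt. Neither passed (edgeR adjusted p = 0.63 and 0.812).

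Of 6 acid export genes, 1 was lower at an unadjusted p under 0.05, near the 14.2% of all tested genes. This was Slc4a4, a sodium bicarbonate cotransporter, at 15.3, 6.77 and 16.7 CPM in fx1, fx2 and fx3, against 58.7, 15.5 and 77.4 CPM in wt1, wt2 and wt3, overlapping through wt2 (edgeR adjusted p = 0.24, DESeq2 adjusted p = 0.0189). Car12, a membrane-bound carbonic anhydrase, averaged 796 ± 58.2 CPM in fx/fx and 771 ± 290 CPM in wt/wt (edgeR adjusted p = 0.963). Of 6 regulators, 1 was higher at an unadjusted p under 0.05, again near that 14.2%. This was Hif1a, the oxygen-regulated subunit of a hypoxia-inducible factor, at 221, 189 and 248 CPM in fx1, fx2 and fx3, against 134, 170 and 134 CPM in wt1, wt2 and wt3 (log2 fold change 0.59, SE 0.19, edgeR adjusted p = 0.246). Unlike Slc16a3 and Car9, Hif1a was not highest in fx2 among the fx/fx libraries, although it was highest in wt2 among the wt/wt libraries. Its partner Arnt averaged 97.2 ± 6.84 CPM in fx/fx and 93.6 ± 9.36 CPM in wt/wt, and Myc 95.05 ± 8.33 CPM in fx/fx and 84.7 ± 18.6 CPM in wt/wt (edgeR adjusted p = 0.915 and 0.763).

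**Figure D5:**
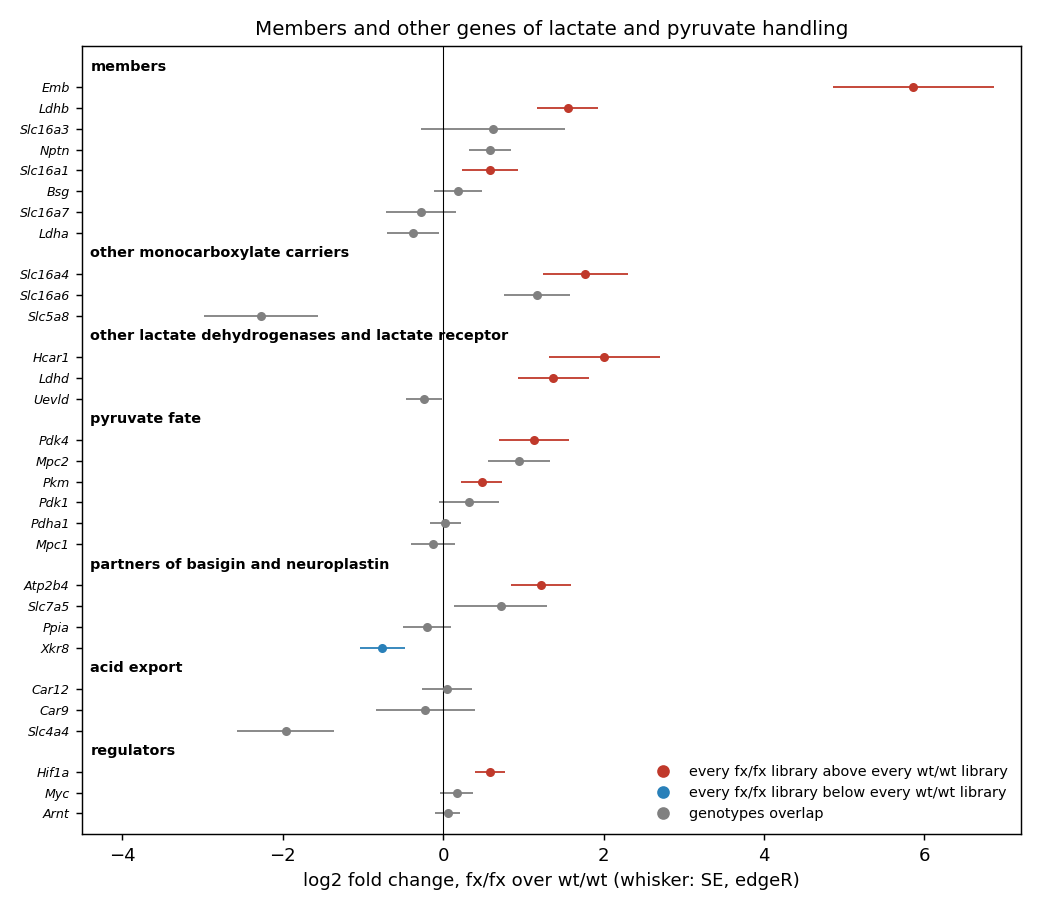
Log2 fold change of fx/fx over wt/wt (horizontal axis; whiskers are SEs from edgeR) of the 8 genes and the 22 pathway genes named in the text, grouped by list down the page. Red marks genes with every fx/fx library above every wt/wt library, blue the reverse (Xkr8 alone), and grey an overlap; Emb stands at 5.87 and Slc5a8 lowest at -2.27.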

How the data were processed

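Total RNA of 3 fx/fx and 3 wt/wt tumor samples was sequenced with Illumina libraries. The deposited values are raw gene counts of read pairs, without normalization. Per the file headers, the authors made these counts with featureCounts 1.6.0 on Ensembl release 93 of GRCm38, with both ends aligned and strand option 2. The submitters' processing notes name STAR 2.5.1b and featureCounts 1.4.6, another version. No header option counts pairs with several alignments. GENCODE M21 gave symbols for 54165 of 54232 identifiers.

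Genotypes were compared with edgeR 4.0.16 (filterByExpr, TMM, robust quasi-likelihood test, 2-sided) in R 4.3.3, with Benjamini-Hochberg adjustment over all 16752 tested genes and 0.05 as the threshold. SE is the log2 fold change divided by the root of F. CPM uses TMM-scaled totals; fold changes are fx/fx over wt/wt. DESeq2 1.42.0 and limma-voom (limma 3.58.1) were alternatives. The steps were tested on simulated data. At these depths 3 counts, the limit that a count of 0 allows, equal between 0.056 and 0.0817 CPM in fx/fx and between 0.0646 and 0.0708 CPM in wt/wt, for counting error only.

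The 8 genes and all lists were chosen with earlier results of these data known. Named pathway genes had an unadjusted edgeR p under 0.05, a DESeq2 call or 1 of the highest mean CPM values of their list; the 5 genes most like Emb had a mean of at least 1 CPM and no predicted-gene name. Promoter windows are from RefSeq (GRCm38.p6), matched for 6 of the 8 genes. Results for some genes of the lists are not reported here.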

Additional observations from a re-analysis of the deposited data

How the results depend on the processing

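With 3 libraries per genotype, single libraries moved several values. edgeR called 0 genes with RLE or no scaling, limma-voom, robust=FALSE or the replicate block, 38 without the filter on low counts, and between 0 and 2 with 1 library left out (2 without fx2). Where all libraries were used and none was called, between 2081 and 2392 genes had an unadjusted p under 0.05. The count by DESeq2 was 833, or between 412 and 1626 with 1 library left out (412 without wt1, 547 without wt3, 508 without fx1, 1626 without fx2), a check chosen after seeing the data. The direction of Emb, Nptn, Slc16a1, Ldha and Ldhb and of the 3 shares was the same under every alternative run. Without fx2 the log2 fold change turned to -0.052 for Bsg (-0.066 by DESeq2), -0.74 for Slc16a3 (-0.735 by DESeq2) and 0.031 for Slc16a7 (0.029 by DESeq2); the cause was not tested. Across libraries left out, the edgeR log2 fold change ran from -0.052 to 0.41 for Bsg, 0.39 to 0.81 for Nptn, 0.31 to 0.77 for Slc16a1, -0.74 to 1.775 for Slc16a3, -0.80 to 0.031 for Slc16a7, -0.63 to -0.13 for Ldha and 1.16 to 1.84 for Ldhb. DESeq2 gave ranges of -0.066 to 0.42 for Bsg, -0.735 to 1.77 for Slc16a3, -0.80 to 0.029 for Slc16a7, 0.39 to 0.80 for Nptn and 1.15 to 1.82 for Ldhb, with a log2 fold change of 1.54 for Ldhb with all libraries.

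Deviations of same-numbered fx/fx and wt/wt libraries from their group means correlated at -0.085, -0.0946 and 0.0569. Libraries of different number correlated at between -0.222 (fx3 with wt1) and 0.279 (fx2 with wt1). So few libraries cannot show whether replicate numbers pair them. With the replicate block, edgeR called 0 genes (2081 at an unadjusted p under 0.05), and the log2 fold change was 1.48 for Ldhb and 0.14 for Bsg.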
